A study of Solanum tuberosum with 11 samples.

Results

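The comparison described here sets the condition that the authors' deposited table calls NG 5-Days against the one it calls Controls, in the bud-bearing tip of potato (Solanum tuberosum, cultivar Atlantic) minitubers. It covers 35090 of the 35091 transcripts listed, since 1 line was dropped because the table marks it as too abundant to process. Per the labels, dormant minitubers from a commercial greenhouse were injected whole with 5 µl of dimethyl sulfoxide (DMSO) carrying 10 µg of NG, 1-(alpha-ethylbenzyl)-3-nitroguanidine, or with 5 µl of DMSO alone, and RNA was taken from a disc of periderm that held the apical bud. The labels list 2 NG libraries from day 4, 3 DMSO libraries from zero time, and 3 NG libraries each from days 1 and 7. No label names a day 5, so the condition is kept under the table's name. The Controls are taken as the DMSO tubers, the one control the labels give. The labels list no DMSO tubers of a later time, so the effect of NG and that of elapsed time cannot be told apart. The disc holds both bud and skin tissue, so fewer cells of a kind and less RNA per cell cannot be told apart either.

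The bud of a freshly harvested potato tuber is dormant: its meristem is alive but does not grow, and the tuber stores starch and abundant storage and defence proteins. Dormancy ends when the bud resumes cell division and growth, and cytokinins are the plant hormones best known for ending it. Some substituted nitroguanidines act like cytokinins in plant tissues and can shorten tuber dormancy. No names or functions accompany the identifiers, and a RefSeq table of 32873 genes (SolTub_3.0) held 0 of them. Transcripts are therefore described by their level, the size of their change and their place on the chromosomes of the deposited table, and no function or sequence is given for any of them.

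The table holds 1 combined level per condition, in a unit its header does not name, and the authors' own test of each pair. Change here means log2((NG 5-Days + 1)/(Controls + 1)), on which a value of 1 is a 2-fold higher level. Each standard error is the model error that the authors' test used, recovered as the size of the log2 fold change over the test statistic. No source used here says that libraries came from separate tubers, so the p-values cover only the variation the authors' model saw, which may be technical.

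Most transcripts kept nearly the same level. Of the 35090, 9650 were listed at 0 in both conditions, and 14823 in all were marked as not tested and 44 as having too little data. Among the 20223 tested, the median change was 0.01, and the quartiles were -0.22 and 0.25. On the change scale 1057 transcripts were at least 2-fold higher in NG 5-Days, which is 3.01% of the 35090, and 688 were at least 2-fold lower, which is 1.96%. The lower side reached further: 36 transcripts were 8-fold or more lower, against 1 that was 8-fold or more higher.

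The authors' test called 298 transcripts, with 0.05 as the limit on its adjusted p, which is 1.47% of those tested. Of these, 131 rose, or 0.648% of those tested, and 167 fell, or 0.826%. The rises were of moderate size, with a median 3.49-fold by the levels themselves, a range of 2.09-fold to 42.3-fold, and 2 of 131 at 8-fold or more. The falls spread more widely, with a median of 4.54-fold, a range of 2.06-fold to 227-fold, and 45 of 167 at 8-fold or more. Rises and falls came from similar levels in the Controls. The transcripts that rose had a median level of 49.8 in NG 5-Days and 13.3 in the Controls, and those that fell a median of 2.74 in NG 5-Days and 14.4 in the Controls. Together the 131 rises summed to 15193 in NG 5-Days, 2.44% of all levels, against 4892 in the Controls, 0.758%. The 167 falls summed to 3725 in NG 5-Days, 0.597% of all levels, against 11104 in the Controls, 1.72%.

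The number of calls in this comparison leans on the others in the table. The deposited adjusted p-values were recovered by adjusting all 118862 tested lines of the 6 comparisons together, and with this comparison adjusted alone 96 transcripts were called, 23 rises and 73 falls. Rises were 44.0% of the deposited calls, 24.0% of the calls when the comparison was adjusted alone, and 28.0% of those at an adjusted p under 0.01.

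**Figure D1:**
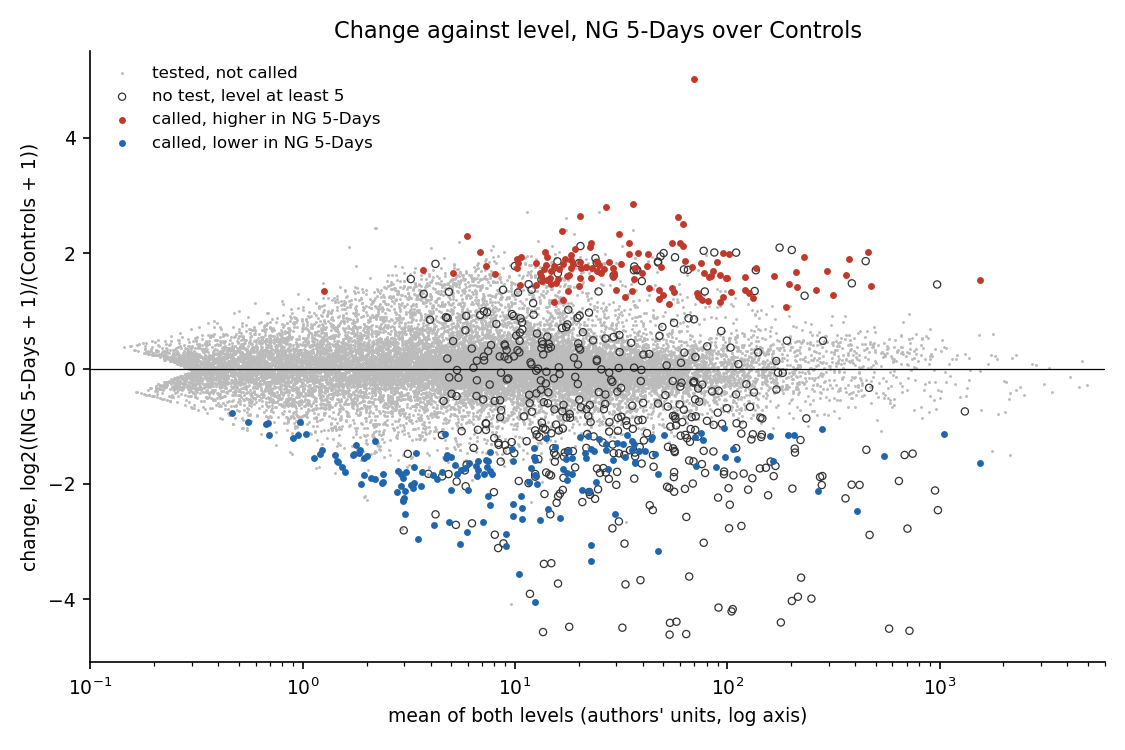
Each point is a transcript, with the mean of its level in NG 5-Days and Controls on a log axis and its change on the log2(level + 1) scale. Filled colours are the 131 rises and 167 falls called by the deposited test, grey points were tested and not called, and open circles are transcripts with a level of at least 5 that have no test. The rises sit mainly between changes of 1 and 3, with 1 near 5, and the deepest falls are largely open circles.

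Which direction held more calls changed with level when transcripts were classed by the mean of both conditions. At a mean level of 1 to 10, 7 rose and 81 fell among 8604 tested. Between 10 and 100, 103 rose and 66 fell among 7458, and at 100 and over 21 rose and 12 fell among 987. No rise and 8 falls were called among the 3174 tested transcripts with a mean level of 0.1 to 1. A rise lifts the mean and a fall lowers it, so this ordering is partly fixed by the direction itself. By change alone, with no test, the order was another. At a mean level of 100 and over, 6.02% of all 1063 transcripts, tested or not, were 2-fold or more lower and 3.76% higher. The shares were 3.46% lower and 5.22% higher at 10 to 100, and 3.88% lower and 6.94% higher at 1 to 10. Classed by their level in the Controls, the same calls were nearer to balance: 54 rises and 65 falls at 1 to 10, 64 and 83 at 10 to 100, and 12 and 18 at 100 and over. At a Controls level of 100 and over, 8.26% of all transcripts were 2-fold or more lower and 1.74% higher on the change scale, against 4.26% and 2.76% at 10 to 100. At 1 to 10 the order turned, with 3.16% lower and 8.14% higher. At 0.1 to 1 the shares were 0% and 2.30%, and a 2-fold fall cannot be reached there on this scale. The Controls level is part of the change, so these shares too are partly fixed by the classing. The share called, of those tested, was 0.0622% at 0.1 to 1, 1.37% at 1 to 10, 2.03% at 10 to 100 and 3.02% at 100 and over.

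The change that could be called depended on level. At the median standard error of its class of Controls level, a transcript needed a 7.68-fold difference at 0.1 to 1, 4.12-fold at 1 to 10, 2.42-fold at 10 to 100 and 2.03-fold at 100 and over. In the same order the classes had median standard errors of 0.99, 0.69, 0.43 and 0.34 (log2 units). A change of exactly 2-fold was below what was needed in each of these classes. Of the 970 tested transcripts that were 2 to 4-fold higher, 111 were called, and of the 444 that were 2 to 4-fold lower, 122 were.

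**Figure D2:**
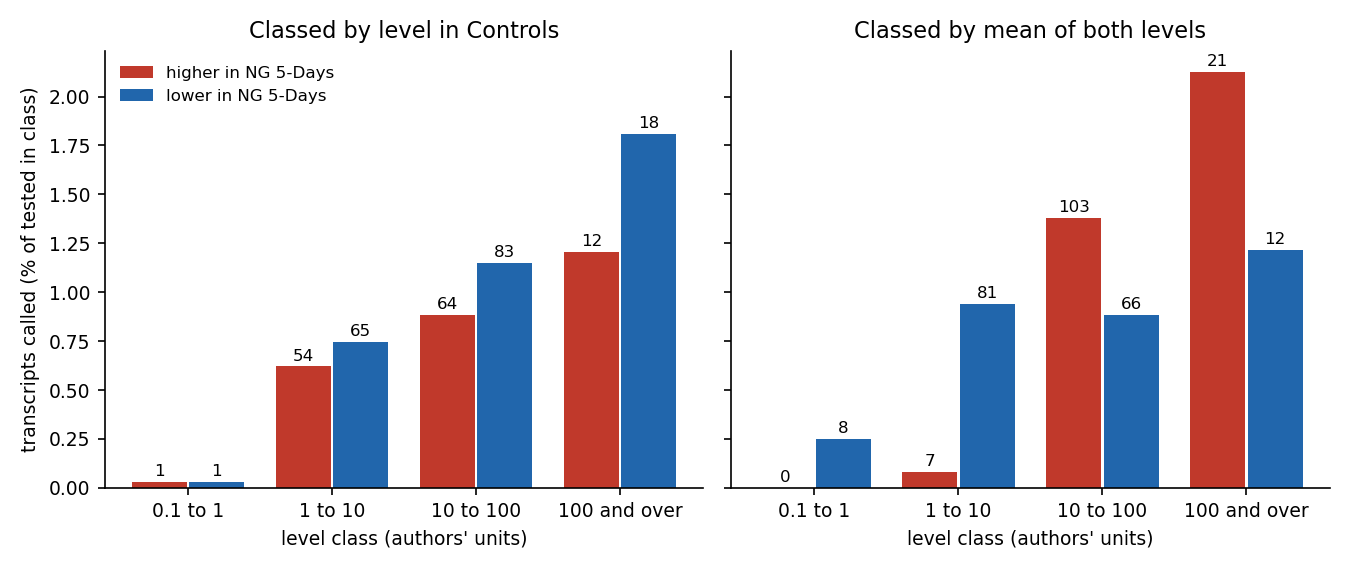
Bars give the share of tested transcripts called higher (red) and lower (blue) in NG 5-Days, in percent of the tested transcripts of each class, with the count above each bar. Classed by level in the Controls (left) both shares grow with level, with 12 rises and 18 falls at 100 and over. Classed by the mean of both levels (right), falls lead among the calls at 1 to 10 and rises lead among the calls from 10 upward. Transcripts without a test are not shown.

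The steepest rise was that of PGSC0003DMG400021289, a locus of 270 bases at chromosome 10, 2210017 to 2210287. The authors' deposited table lists it at 136 in NG 5-Days against 3.23 in the Controls, a 42.3-fold rise with a log2 fold change of 5.40, a standard error of 1.13 and an adjusted p of 9.15e-05. On the change scale it was 5.02, against 2.84 for the next rise, PGSC0003DMG400017342. This one lay at chromosome 7, 47724335 to 47726231, and the authors' deposited table has 63.6 in NG 5-Days and 7.99 in the Controls, with a log2 fold change of 2.99, a standard error of 0.71 and an adjusted p of 0.000957.

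The next 6 rises by size, among calls that reached a level of 5, lay on chromosomes 2, 6, 8, 9 and 12. At chromosome 6, 20982869 to 20984652, the authors' deposited table has 47.5 in NG 5-Days and 5.98 in the Controls, a 7.95-fold rise with an adjusted p of 0.00209. A transcript at chromosome 2, 46051636 to 46052847, was at 35.8 in NG 5-Days and 4.87 in the Controls in the authors' deposited table, with an adjusted p of 0.0292. Chromosome 9 held 2 of the 6, at 36809744 to 36810398 and at 40074548 to 40075693. The first was at 101 in NG 5-Days and 15.6 in the Controls in the authors' deposited table, with an adjusted p of 0.00613. The second was at 28.5 in NG 5-Days and 4.66 in the Controls in the authors' deposited table, with an adjusted p of 0.0375. At chromosome 12, 51732772 to 51737309, the rise was to 105 in NG 5-Days, against 17.8 in the Controls, and by the authors' deposited table it had the smallest adjusted p of these 6, 6.11e-05. The remaining one, at chromosome 8, 39400869 to 39401698, was at 52.3 in NG 5-Days and 9.59 in the Controls in the authors' deposited table, with an adjusted p of 0.0288. When the comparison was adjusted alone, the calls on chromosome 2, on chromosome 8 and the second on chromosome 9 were lost, with adjusted p-values of 0.140, 0.139 and 0.167.

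On the change scale, the deepest fall among calls with a level of at least 5 was that of PGSC0003DMG400011438, at chromosome 10, 43787803 to 43788901. In the authors' deposited table it was at 0.531 in NG 5-Days and 24.3 in the Controls, 45.8-fold lower, with a log2 fold change of -5.52, a standard error of 0.81 and an adjusted p of 1.03e-09. PGSC0003DMG402007944, at chromosome 4, 59859834 to 59860400, was at 0.786 in NG 5-Days and 20.03 in the Controls in the authors' deposited table, with a log2 fold change of -4.67, a standard error of 0.93 and an adjusted p of 3.14e-05. The table gives another transcript the identical locus, at 0.0727 in NG 5-Days and 1.05 in the Controls and not called, so how reads were shared between these transcripts is uncertain.

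The next 6 falls were all to a level under 10. A short transcript at chromosome 9, 47542989 to 47543392, was at 8.66 in NG 5-Days and 85.4 in the Controls in the authors' deposited table, 9.86-fold lower with an adjusted p of 2.82e-07. Its level in NG 1-Day was 585, the highest of the 4 conditions. Also on chromosome 9, at 51763184 to 51765255, the authors' deposited table has 4.12 in NG 5-Days and 41.4 in the Controls, with an adjusted p of 1.15e-11, the smallest of the 22 called transcripts named. At chromosome 10, 4123287 to 4126292, the level was 3.29 in NG 5-Days and 42.2 in the Controls in the authors' deposited table, with an adjusted p of 2.00e-05. At chromosome 3, 41756825 to 41757344, it was 1.13 in NG 5-Days and 16.98 in the Controls in the authors' deposited table, with an adjusted p of 8.60e-05. At chromosome 6, 49768037 to 49770231, it was 0.412 in NG 5-Days and 10.6 in the Controls in the authors' deposited table, 25.8-fold lower with an adjusted p of 2.11e-07. The last, at chromosome 10, 803109 to 804065, was at 0.0306 in NG 5-Days and 6.97 in the Controls in the authors' deposited table. Its ratio of 227-fold was the largest of all falls, but its standard error of 2.20 on the log2 scale was the largest of all falls too, and its adjusted p was 0.00920, or 0.0652 with the comparison adjusted alone.

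The calls with the highest levels follow. The most abundant rise, at chromosome 7, 39619065 to 39620684, reached 2292 in NG 5-Days, against 795 in the Controls, in the authors' deposited table (2.88-fold, adjusted p = 0.0294). At chromosome 11, 3324144 to 3325559, the authors' deposited table has 742 in NG 5-Days and 182 in the Controls (4.07-fold, adjusted p = 0.000391). At chromosome 7, 52915625 to 52916171, it has 692 in NG 5-Days and 258 in the Controls (2.69-fold, adjusted p = 0.00352 in the authors' deposited table). The most abundant fall, at chromosome 8, 1435830 to 1439140, was to 754 in NG 5-Days, against 2355 in the Controls, in the authors' deposited table (3.13-fold lower, adjusted p = 0.0266). At chromosome 6, 52139121 to 52140124, the authors' deposited table has 659 in NG 5-Days and 1450 in the Controls (2.20-fold lower, adjusted p = 0.0234). At chromosome 8, 35682875 to 35684375, it has 285 in NG 5-Days and 815 in the Controls (2.86-fold lower, adjusted p = 0.0106 in the authors' deposited table). Adjusted alone, the first of these rises and all 3 falls lost their calls, with adjusted p-values of 0.140, 0.131, 0.126 and 0.0714.

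The transcripts called here had other levels in the other NG conditions, which share the same Controls. The 131 rises had a median level of 13.3 in the Controls, then 6.51, 49.8 and 22.2 at NG 1-Day, NG 5-Days and NG 7-Days. For the 167 falls the medians were 14.4 in the Controls, then 15.3, 2.74 and 8.93 at the 3 NG conditions in the same order. The members were chosen for their NG 5-Days and Controls levels, so these medians are given without a test. Of the 8 largest falls, PGSC0003DMG400011438 was the one listed higher in NG 7-Days, at 39.1, than in the Controls, at 24.3, in the authors' deposited table.

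**Figure D3:**
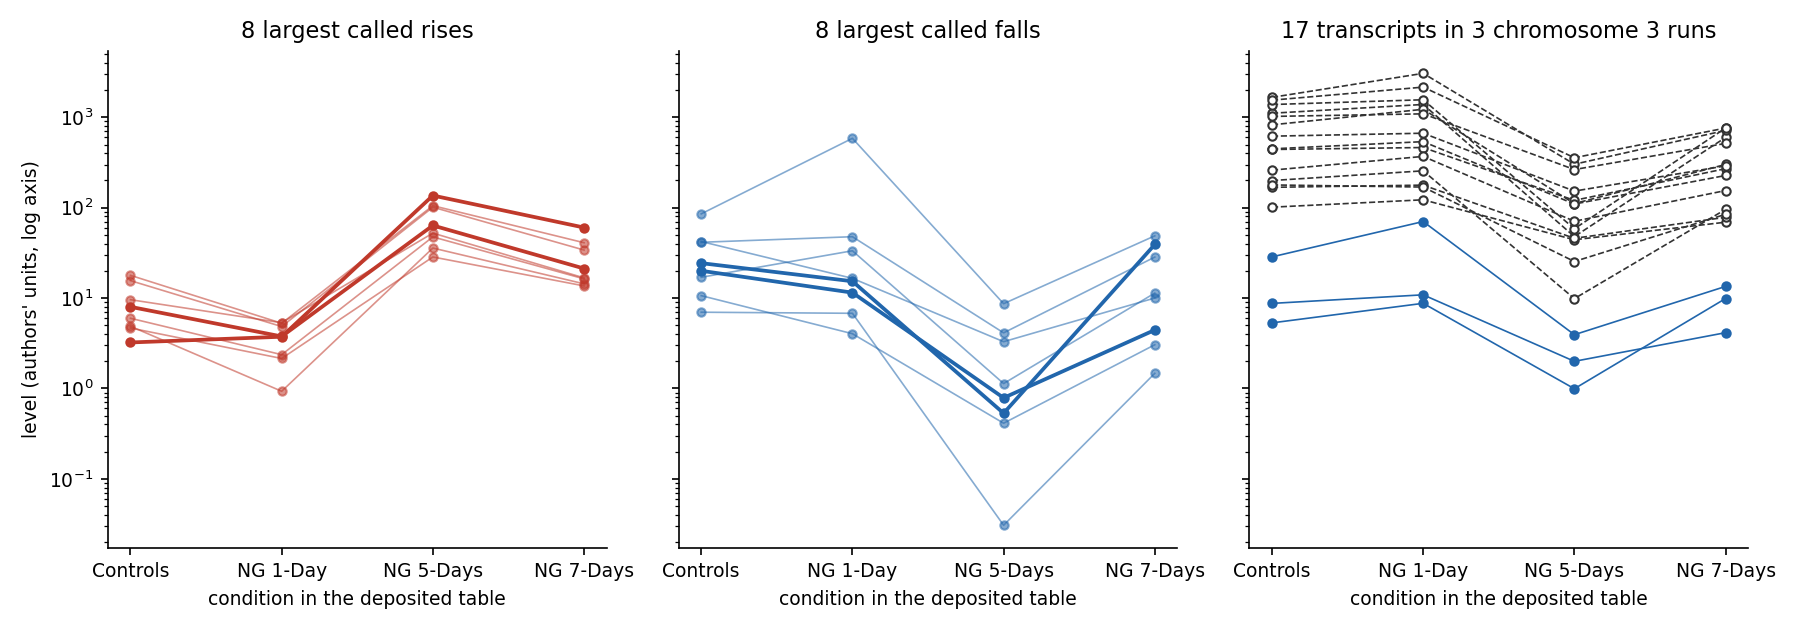
Lines join a transcript's level across the Controls and the 3 NG conditions, in order of day, on a log axis; bold lines are the transcripts named by identifier. The 8 largest called rises (left) peak in NG 5-Days, the 8 largest called falls (middle) are lowest there, and so are the 17 transcripts of 3 runs on chromosome 3 (right), of which 14 (dashed, open) are marked as not tested and 3 (blue) were tested.

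Transcripts listed at 0 in one condition gave no call. The table lists 558 transcripts above 0 in NG 5-Days and at 0 in the Controls, and 1063 at 0 in NG 5-Days and above 0 in the Controls. Few were far from 0 in the other condition: 5 of the 558 and 9 of the 1063 reached a level of 1 there, and the medians were 0.0404 and 0.0314. Of the 558, 21 were tested and 0 called by the authors' test, with 3 at an unadjusted p under 0.05. Of the 1063, 36 were tested and 0 called, with 1 at an unadjusted p under 0.05. The highest tested were, in the authors' deposited table, 4.43, 4.39 and 3.32 in NG 5-Days for transcripts listed at 0 in the Controls, with adjusted p-values of 0.633, 0.0705 and 0.247. In the other direction they were listed at 0 in NG 5-Days and at 5.88, 2.32 and 1.78 in the Controls in the authors' deposited table, with adjusted p-values of 0.685, 1.00 and 0.963.

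Many of the largest falls lay outside the deposited test. Among transcripts whose higher level was at least 5, 425 were marked as not tested in this comparison, which is 3.29% of the 12904. They were lower more often than higher: 298 were lower in NG 5-Days and 127 higher, and their levels summed to 21169 in NG 5-Days and 41801 in the Controls. The share without a test grew with the depth of the fall. It was 1.69% of the 11508 transcripts that differed by under 2-fold, 28.8% of the 417 that were 2 to 4-fold lower, 51.2% of the 80 that were 4 to 8-fold lower and 77.8% of the 36 that were 8-fold or more lower. On the higher side it was 4.39% of 820 at 2 to 4-fold and 14.0% of 43 at 4-fold or more. No source used here states the rule for leaving a line untested. The status varied by comparison: 74 of the 425 were untested in all 6, and 178 were tested between NG 1-Day and the Controls.

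These lines still carry p-values. Of the 425, 173 had a p at or below 0.00297, the highest p that was called, and 148 of these were lower in NG 5-Days and 25 higher. The adjustment was repeated with those untested lines whose p lay under 1, which were 5185 of the 14823 in this comparison. Leaving out the other untested lines makes it more lenient. The comparison then had 474 calls, 157 rises and 317 falls, and rises were 33.1% of them. The 4 largest of the untested differences, picked out after their values were seen, were all lower in NG 5-Days. At chromosome 1, 80055735 to 80056866, the authors' deposited table has 3.29 in NG 5-Days and 104 in the Controls. Chromosome 3 held the other 3, at 4.16 in NG 5-Days and 124 in the Controls (43002241 to 43004427), at 0.181 in NG 5-Days and 26.9 in the Controls (43352737 to 43353841), and at 58.4 in NG 5-Days and 1384 in the Controls (16206009 to 16206797), all in the authors' deposited table.

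**Figure D4:**
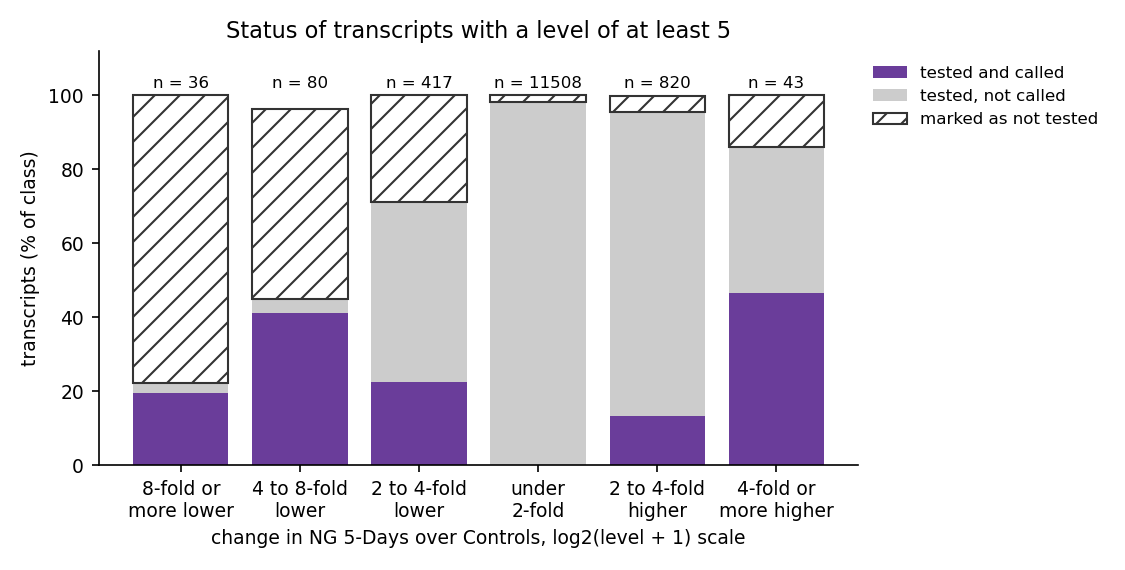
Bars split the transcripts with a level of at least 5 in either condition into tested and called, tested and not called, and marked as not tested, in percent of each class of change, with the number of transcripts above. The hatched share without a test is 77.8% of the 36 transcripts that were 8-fold or more lower and 1.69% of those under 2-fold; the small gap in the second bar is transcripts with too little data.

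Neighbouring transcripts were lower together in several stretches. Among the 12904 transcripts with a level of at least 5, tested or not, 6.69% were 2-fold or more higher and 4.13% were 2-fold or more lower. The runs of 5 or more neighbours were all on the lower side. There were 6 runs of 5 or more neighbours that were each 2-fold or more lower and 0 that were each higher, and 9 against 2 runs of 4 or more. Of 3 or more there were 19 lower and 9 higher, while of 2 or more there were 59 lower and 66 higher. Transcripts below that level were skipped in this order and can lie between the members of a run. Some runs also hold transcripts with an identical locus. These runs were defined after the data were seen and were not tested.

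Among lower runs of 4 or more, chromosome 3 held the longest and the 3 with the highest summed Controls levels. From 20367569 to 20645195, 8 neighbours with a level of at least 5 were 2.29-fold to 7.26-fold lower, and their levels summed to 917 in NG 5-Days and 3968 in the Controls. Inside this stretch lay 9 more transcripts listed below a level of 5, 2 of them at 0 in both conditions. A run of 5 followed from 20707647 to 20864129, with sums of 583 in NG 5-Days and 2521 in the Controls and folds of 3.67 to 7.03. Between these 2 runs lay 1 transcript with a level of at least 5 that was not lower, at 11.9 in NG 5-Days and 8.97 in the Controls. A run of 4 lay at lower coordinates, from 16174064 to 16332897, with sums of 227 in NG 5-Days and 3518 in the Controls and folds of 7.43 to 23.7. Together the 17 transcripts summed to 1726 in NG 5-Days, 0.277% of all levels, and to 10007 in the Controls, 1.55%, a 5.80-fold lower sum. Their sum was 13341 in NG 1-Day and 4947 in NG 7-Days. Only 3 of the 17 were tested and 1 was called, at 20611551 to 20612220, where the level was 3.93 in NG 5-Days and 28.6 in the Controls, with an adjusted p of 5.68e-05 in the authors' deposited table. All 17 loci were short, from 561 to 1389 bases. Whether they are similar copies that share reads is not known here.

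The runs of 5 or more on the other chromosomes were also of short loci. At chromosome 6, 52389133 to 52404584, 5 transcripts summed to 61.5 in NG 5-Days and 976 in the Controls, 15.9-fold lower, and 4 of them were not tested. Chromosome 7, 45030960 to 45046838, held 6 tested transcripts that summed to 101 in NG 5-Days and 301 in the Controls, of which 3 fell by the authors' test. Chromosome 9, 27832512 to 27886380, held 5 with sums of 19.7 in NG 5-Days and 91.1 in the Controls. Of the 4 tested there, 3 fell by the authors' test. At chromosome 8, 41049466 to 41066965, 5 summed to 123 in NG 5-Days and 335 in the Controls, and 1 of the 3 tested fell by the authors' test.

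On the higher side the longest runs, 2 of them, held 4 transcripts each. At chromosome 6, 51908938 to 51973807, 4 short loci summed to 878 in NG 5-Days and 341 in the Controls, with folds of 2.14 to 3.04, and 2 of the 4 rose by the authors' test. At chromosome 8, 39378647 to 39401698, 4 summed to 102 in NG 5-Days and 18.7 in the Controls, with folds of 3.26 to 7.74, and 2 of the 4 rose by the authors' test.

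By the calls themselves, 26 of the 298 called transcripts lay in side-by-side pairs of the same direction. Over all tested transcripts 0.648% rose and 0.826% fell, and whether the pairs exceed what these shares give was not tested. Among tested transcripts, 13 adjacent pairs were called in the same direction, 4 of rises and 9 of falls, no run was longer than 2, and 6 adjacent pairs were called in opposite directions. The 4 pairs of rises, listed after their values were seen, lay at chromosome 3, 36243543 to 36271837, chromosome 6, 51915665 to 51964099, chromosome 7, 39493320 to 39620684 and chromosome 8, 39573943 to 39585443. The pair on chromosome 7 includes the most abundant rise, and its other member was at 255 in NG 5-Days and 122 in the Controls. On chromosome 8 the members were at 44.0 and 55.5 in NG 5-Days, against 11.6 and 13.3 in the Controls. In the 9 pairs of falls the folds ran from 2.27 to 29.96, with a median of 6.02. In 1 of these pairs, at chromosome 1, 74408506 to 74417239, both transcripts have the identical locus. The count of 13 became 8 with untested transcripts kept in the order and 5 at an adjusted p under 0.01. With untested lines entered into the adjustment as above and all transcripts kept in order, there were 32 pairs, 4 of rises and 28 of falls. This alternative was added after seeing the data.

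Falls came from shorter loci than the tested transcripts at large. Of the 167 falls, 52.7% lay on a locus under 2000 bases, and of the 131 rises 36.6%, against 28.9% of all tested transcripts. The median locus was 1850 bases for falls, 2740 for rises and 3460 for all tested. A locus as the table gives it spans introns, and 2470 transcripts share an identical locus with another, so it is not the length of the RNA. The share that fell was 0.497% of tested loci under 500 bases, 1.85% of tested loci of 500 to 1000 bases, 1.49% at 1000 to 2000, 0.973% at 2000 to 4000, 0.291% at 4000 to 8000 and 0.217% at 8000 and over. For rises the same shares were 0.166%, 1.00%, 0.835%, 0.673%, 0.552% and 0.380%. Longer loci had higher levels, with a median mean level of 2.89 at 500 to 1000 bases and 10.4 at 4000 to 8000, and smaller standard errors, 0.82 and 0.50 on the log2 scale. Among transcripts with a mean level of 10 to 100, 2.78% of tested loci under 2000 bases fell and 2.27% rose, against 0.460% and 1.18% of longer loci. At a mean level of 100 and over the order of the directions turned among the calls. There 2.23% of the 224 tested loci under 2000 bases fell and 6.70% rose, against 0.917% and 0.786% of longer loci. By change alone, with no test, the order did not turn. Of all 285 transcripts on these shorter loci, tested or not, 15.8% were 2-fold or more lower and 10.2% higher. At 1 to 10, 1.59% of the shorter loci fell and 0.0742% rose, against 0.643% and 0.0846% of longer loci. These classes use the mean of both levels, which is partly fixed by direction.

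Each chromosome was cut into 10 equal bins, up to the highest end listed on it. The share that rose was lowest in bin 3 and highest in bin 7. In bin 1, 12 rose and 28 fell among 3230 tested, which is 0.372% and 0.867%. In bin 10, 37 rose and 42 fell among 4902, which is 0.755% and 0.857%. Bin 3 held 0 rises and 6 falls among 639, and bin 7 held 14 rises and 6 falls among 1290. By change alone, with no test, 3.34% of all transcripts in bin 1 were 2-fold or more higher, against 1.21% to 2.74% in bins 2 to 8, 4.41% in bin 9 and 4.44% in bin 10. These are shares of all listed transcripts, and fewer of those were tested in the middle bins: 639 of 1945 in bin 3 and 606 of 2072 in bin 4. In bin 1, 3230 of 4794 were tested, and in bin 10, 4902 of 6639. The contrast is therefore not one among tested transcripts alone. The shares of calls rest on few transcripts and were not tested.

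By chromosome, the share called lay between 0.857% of tested transcripts on chromosome 5, with 6 rises and 6 falls, and 2.11% on chromosome 7, with 12 rises and 19 falls. Chromosome 9 had 8 rises and 20 falls, and chromosome 11 had 10 rises and 5 falls. By crowding, the share called was 0.949% of tested transcripts with 0 to 4 other transcripts within 100 kb, 1.56% with 5 to 9, 1.65% with 10 to 19 and 1.28% with 20 and over.

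**Figure D5:**
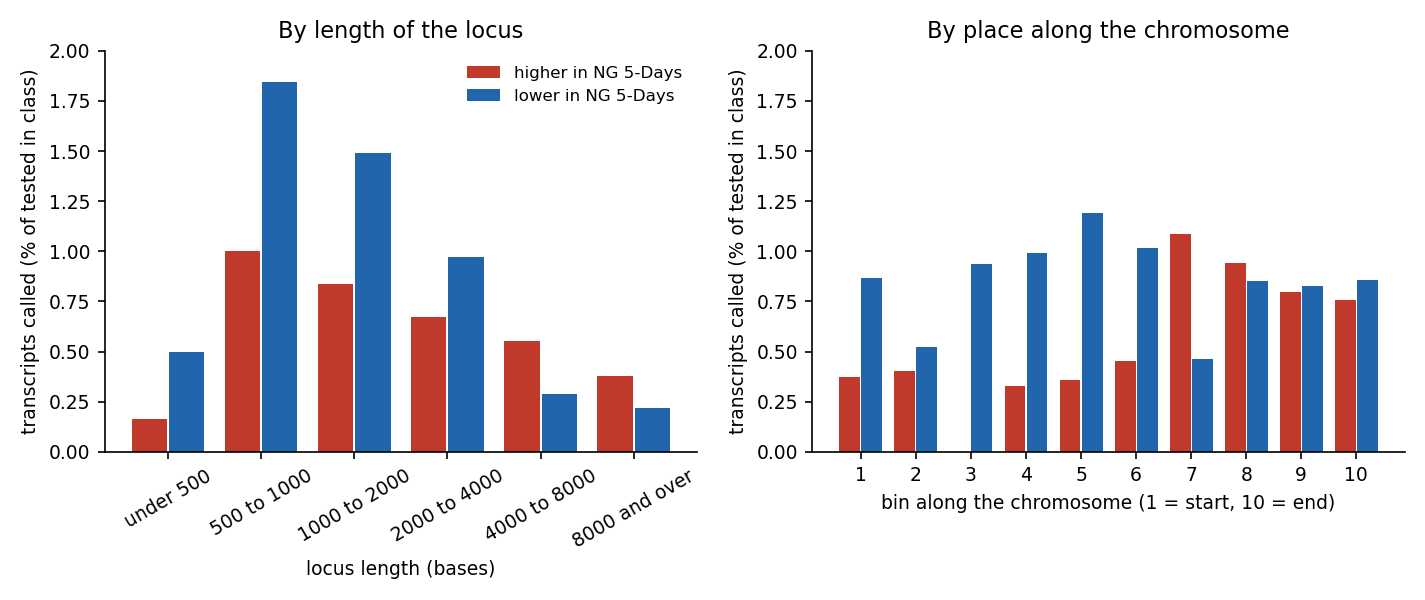
Bars give the share of tested transcripts called higher (red) and lower (blue) in NG 5-Days, in percent of the tested transcripts of each class. By locus length (left) the share of falls drops from 1.85% at 500 to 1000 bases to 0.217% at 8000 and over, with 0.497% under 500, and along the 10 bins of a chromosome (right) the share of rises is at most 0.452% in bins 1 to 6 and at least 0.755% in bins 7 to 10.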

How the data were processed

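RNA sequencing libraries were made with standard Illumina methods, per the labels. The authors combined libraries into 1 level per transcript and condition, and these deposited levels were used in their unnamed unit; the columns match the output of Cuffdiff, which usually holds FPKM. The deposited p-value, adjusted p-value, test statistic and log2 fold change are the authors'. The aligner, build and depth are not given in sources used here. The table has no value per library, so the planned tests over libraries could not be run, and the authors' test at an adjusted p under 0.05 was used.

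Changes used a pseudocount of 1. Standard errors were recovered from the fold change and statistic. Benjamini-Hochberg adjustment was repeated with NumPy 2.4.6, pandas 2.3.3 and Python 3.11.15, and tested on simulated data. SciPy 1.17.1 supplied the normal distribution. Whether libraries come from separate tubers is not stated. Named transcripts were the 8 rises and 8 falls with the largest change among calls with a level of at least 5, by identifier for the first 2, and the 3 of each direction with the highest level. Members and rules were chosen with earlier results of these data known, and the runs of neighbours and untested lines after seeing them.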

Additional observations from a re-analysis of the deposited data

Results flagged for a closer look

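The comparison's own test leaves out 231 transcripts with a level of at least 5 that were 2-fold or more apart between NG 5-Days and the Controls, 42 of them higher and 189 lower in NG 5-Days. They were singled out because they show a difference in lines the deposited test does not use. Among the tested transcripts of that level, 819 were 2-fold or more higher and 341 lower. The untested transcripts of that level lay on shorter loci, with 48.7% under 2000 bases against 20.9% of the tested ones, and had a higher median level in the higher condition, 38.4 against 17.2. By chromosome they were 2.27% (chromosome 10) to 4.72% (chromosome 9) of the transcripts of that level.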

How the results depend on the processing

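No paired analysis was possible because the table holds no value per library, so leaving out single libraries was not run either. Against 298 calls (131 rises, 167 falls), an adjusted p under 0.01 left 118 (33 and 85) and adjusting this comparison alone 96 (23 and 73). Adjusting the lines marked as not tested with a p under 1 too gave 474 (157 and 317). Centring on the median shift of 0.01 gave 296 calls, and a minimum level of 1 or a minimum change of 2-fold gave 297 and 293. The 1057 transcripts 2-fold or more higher and 688 lower became 1915 and 1599 with a pseudocount of 0.1, and 395 and 309 with a pseudocount of 5; with tested lines only they were 1010 and 491. The 13 adjacent pairs became 8 with untested transcripts kept in the order and 5 at an adjusted p under 0.01. With the same untested lines adjusted too, an alternative chosen after seeing the data, they became 32. Of the 22 named transcripts that were called, 8 lost the call when the comparison was adjusted alone and 7 at an adjusted p under 0.01. A pseudocount added to both levels cannot turn a direction, so it gave no check of direction. Falls on loci under 2000 bases were 52.7% of falls, 53.4% with the comparison adjusted alone and 53.0% at a minimum level of 1. That minimum kept 166 of the 167 falls, so it could hardly move the share.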
